A study of Arabidopsis thaliana with 236 samples.

Results

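Small heat shock protein genes, 10 of the 27143 loci on the array, were followed in sorted root cells of Arabidopsis thaliana. The 10 members were taken by locus identifier, and each has 1 row in the deposited table. They are HSP17.4 (AT3G46230), HSP17.6C (AT1G53540), HSP18.2 (AT5G59720), HSP17.8 (AT1G07400), HSP17.6II (AT5G12020), HSP17.6A (AT5G12030), ATHSP22.0 (AT4G10250), HSP23.6-MITO (AT4G25200), HSP23.5 (AT5G51440) and HSP21 (AT4G27670). Their low values on treated cortex arrays, and their low values in pericycle beside cortex, were known when the genes were chosen. Those differences are therefore given as a description, with no test. Tests were kept for differences within the pericycle, between the 2 treatments, and among hours. Those tests use arrays that also entered the known differences.

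Small heat shock proteins are chaperones with an alpha-crystallin domain that assemble into oligomers and hold unfolding proteins in a soluble state until HSP70 and HSP100 chaperones refold them. Plants make several classes, directed to the cytosol, the endoplasmic reticulum, mitochondria or chloroplasts. Most are nearly silent in unstressed vegetative tissue and are switched on by heat shock factors after heat and some other stresses.

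All plants were Col-0 seedlings with a green fluorescent protein reporter in cortex or pericycle cells, grown for 9 days at 22 °C on 0.1 mM KNO3 with 16 h of light a day. Treatment began at dawn. Nitrogen seedlings were put on 5 mM KNO3, rhizobium seedlings were given Sinorhizobium meliloti (OD600 0.8) on 0.1 mM KNO3, and standard seedlings were put on fresh 0.1 mM KNO3. Whole roots were turned into protoplasts, cells were sorted by fluorescence, and RNA was amplified and hybridised to NimbleGen arrays. The hours were 1, 2, 4, 6, 8, 10, 12, 14, 16, 20, 24, 36 and 48 h, with 0 h before treatment. The labels do not name the promoters of the reporters, and they state an age of 12 days beside the 9 days of growth. Every array, standard and 0 h included, comes from cells that went through protoplasting and sorting.

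Cortex was represented by 32 nitrogen, 38 rhizobium, 37 standard and 3 arrays of 0 h. Pericycle was represented by 41 nitrogen, 42 rhizobium, 37 standard and 5 arrays of 0 h, after 1 near-identical standard pair had been averaged. Values are log2 intensities, so a difference of 1 is a doubling of signal, and the deposited table reaches 15.53 at most. Array medians over loci ran from 8.32 to 9.06. The labels do not say whether replicates are separate plantings, so p-values measure the spread between arrays only. The pericycle and stele marker list had levels, as a mean of its 8 genes, of 8.88 to 11.14 on pericycle nitrogen, 8.95 to 10.96 on pericycle rhizobium and 8.98 to 11.03 on pericycle standard arrays, against 8.39 to 10.33, 8.27 to 10.23 and 7.98 to 9.21 on the cortex arrays of the same treatments. The 4 cortex markers did not separate the cell types on standard arrays, where their mean was 7.34 to 10.08 in pericycle and 7.76 to 10.24 in cortex. Over the standard and 0 h arrays together, 6 of 8 endodermis markers were above cortex in the pericycle at a limma adjusted p below 0.05. So were 5 of 7 markers of root hairs and epidermis, where 39.2% of all loci passed in either direction.

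A set of 3 cortex standard arrays went against the rest of their group for these genes and stood apart in several results. On the replicate 2 array of 2 h, the replicate 1 array of 4 h and the replicate 2 array of 14 h the mean of the 10 genes was 11.30, 10.09 and 9.85, while the median of the 37 cortex standard arrays was 14.19. ATHSP22.0 was 5.83, 4.75 and 5.62 on these 3 arrays. Their HSP70 list means, 12.19, 11.72 and 11.56, also lay below the cortex standard median of 13.20, while their ER chaperone means of 13.46, 13.62 and 13.64 did not lie outside the range of that group, 12.90 to 13.75. Their cortex marker means, 9.87 to 10.23, lay in the upper part of the cortex standard range of 7.76 to 10.24. The members' mean cortex differences from standard arrays are given with and without them.

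The members were far lower on treated cortex arrays than on standard cortex arrays at nearly every hour. The mean of the 10 genes had a lowest, median and highest array of 8.54, 10.57 and 12.35 with nitrogen and 8.16, 10.19 and 12.11 with rhizobium, against 9.85, 14.19 and 14.54 on standard arrays. The 3 arrays of 0 h had means of 13.09, 14.08 and 10.50, the last of which lay near the treated medians. Averaged over the 13 same-hour differences, nitrogen minus standard had a median of -3.24 over the 10 genes, and rhizobium minus standard had a median of -3.72. The medians of all loci were 0.08 and 0.07. Without the 3 arrays named above the nitrogen differences ran from -6.55 (ATHSP22.0) to -1.37 (HSP23.5), with a median of -3.52, and the rhizobium differences from -7.00 to -1.61 in the same genes. In bulk cell pools, fewer cells with the transcript and less transcript per cell cannot be told apart.

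**Figure D1:**
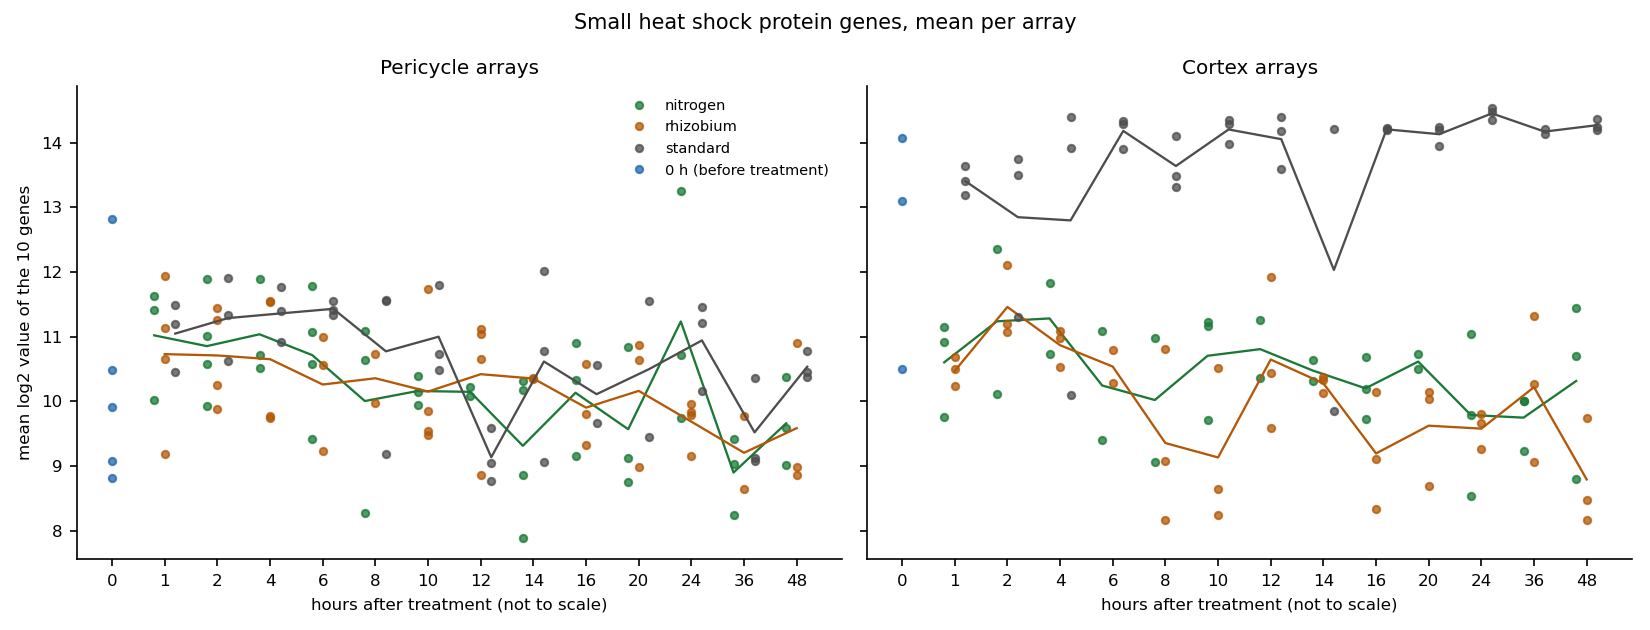
Mean log2 value of the 10 small heat shock protein genes on each array (points) and the mean of each hour (lines), by hours after treatment, in pericycle (left) and cortex (right). Cortex standard arrays lie between 13.18 and 14.54 but for 3 arrays at 2, 4 and 14 h, and cortex nitrogen and rhizobium arrays reach at most 12.35.

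The cytosolic class I genes belong to the largest class of cytosolic small heat shock proteins. HSP17.4 had a lowest, median and highest value of 7.77, 11.98 and 13.77 with nitrogen and 7.86, 11.73 and 13.71 with rhizobium, against 11.43, 15.19 and 15.40 on standard arrays. HSP17.6C had 9.01, 12.41 and 14.01 with nitrogen and 8.64, 12.07 and 13.93 with rhizobium, against 12.03, 15.16 and 15.36 on standard arrays. For both genes, 34 of the 37 standard arrays lay above every one of the 70 treated cortex arrays. HSP17.8 had 11.05, 12.69 and 14.24 with nitrogen and 9.62, 12.34 and 14.33 with rhizobium, against 12.64, 15.03 and 15.21 on standard arrays. HSP18.2 had 6.93, 8.74 and 10.97 with nitrogen and 6.61, 8.97 and 10.98 with rhizobium, against 6.99, 11.74 and 12.70 on standard arrays. For HSP17.8, 33 standard arrays were above all treated ones, and for HSP18.2, 30 were. The mean nitrogen differences of the class I genes were -3.29 for HSP17.4, -2.70 for HSP17.6C, -2.08 for HSP17.8 and -2.48 for HSP18.2, and the rhizobium differences were -3.57, -3.21, -2.48 and -2.52 in the same order. Without the 3 arrays that stood apart they were -3.56, -2.94, -2.25 and -2.85 with nitrogen and -3.84, -3.45, -2.65 and -2.88 with rhizobium. HSP17.4, HSP17.6C, HSP17.8 and the class II genes HSP17.6II and HSP17.6A come close to the top of the scale on standard arrays, and their differences would be lower limits if the signal saturates there, which was not tested.

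The cytosolic class II genes HSP17.6II and HSP17.6A are neighbouring loci, and cross-hybridisation between them was not tested. HSP17.6II had 6.89, 11.72 and 14.26 with nitrogen and 6.42, 11.18 and 13.72 with rhizobium, against 9.17, 15.14 and 15.39 on standard arrays. HSP17.6A had 5.85, 11.95 and 13.76 with nitrogen and 5.33, 11.48 and 13.97 with rhizobium, against 10.30, 14.94 and 15.11 on standard arrays. Each gene was above all 70 treated arrays on 34 standard arrays. Treated values of both genes were spread more widely than standard ones. The SD was 1.76 with nitrogen, 2.12 with rhizobium and 1.11 on standard arrays for HSP17.6II, and 2.15, 2.60 and 0.95 for HSP17.6A. Whether saturation narrows the standard spread was not tested. All but 3 standard arrays were above 13.97 for HSP17.6A. The mean differences were -3.37 with nitrogen and -4.15 with rhizobium for HSP17.6II, and -3.18 and -3.87 for HSP17.6A. Without the 3 arrays they were -3.71 and -4.48 for HSP17.6II and -3.47 and -4.17 for HSP17.6A.

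Organelle members gave both the largest and the smallest of these differences. ATHSP22.0, the small heat shock protein of the endoplasmic reticulum, had 4.78, 5.85 and 9.57 with nitrogen and 4.63, 5.43 and 9.04 with rhizobium, against 4.75, 13.10 and 13.97 on standard arrays. Its mean differences of -5.90 and -6.35 were the largest of the 10, and 34 standard arrays were above every treated array. HSP23.6-MITO, a mitochondrial member, had 7.67, 9.21 and 11.45 with nitrogen and 7.20, 8.44 and 12.00 with rhizobium, against 8.00, 13.93 and 14.69 on standard arrays. Its differences were -4.13 and -4.87 (-4.56 and -5.30 without the 3 arrays), with 34 standard arrays above all treated ones. HSP21, the chloroplast member, had 6.92, 8.18 and 9.96 with nitrogen and 6.14, 7.82 and 11.57 with rhizobium, against 6.80, 13.10 and 13.90 on standard arrays. Its differences were -4.16 and -4.57 (-4.60 and -5.01 without the 3 arrays), and 32 standard arrays were above all treated ones. HSP23.5, the other mitochondrial member, had 9.68, 12.72 and 14.11 with nitrogen and 10.67, 12.24 and 14.57 with rhizobium, against 12.56, 14.02 and 14.55 on standard arrays. For HSP23.5 no standard array was above every treated array, and its differences of -1.26 and -1.50 were the smallest of the 10.

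A count of at least 30 standard arrays above all 70 treated arrays was reached by 9 of the 10 members and by 92 of all 27143 loci, 0.339%. Because the members were chosen on this contrast, nothing is read from that count. In the same contrast 14.8% of all loci were lower with nitrogen and 16.0% with rhizobium at an adjusted p below 0.05. The difference was present at each sampled hour: all 10 genes were below standard at all 13 hours with nitrogen, and with rhizobium all 10 were below at 12 hours and 9 were below at 2 h. It was also present within each replicate number, a possible batch on which the labels are silent. The member medians for numbers 1, 2 and 3 were -2.58, -2.86 and -4.95 with nitrogen and -3.65, -3.56 and -4.43 with rhizobium, with all 10 genes below 0 in each. Numbers 1 and 2 had 13 such hours, and number 3 had 5 with nitrogen and 10 with rhizobium. The 3 standard arrays that stood apart carry number 1 or 2, so the sizes are not comparable between numbers. The counts by hour and by replicate number split the same arrays on which the members were chosen. The share of all loci was not counted for them, so they too are descriptions from which nothing is read.

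**Figure D2:**
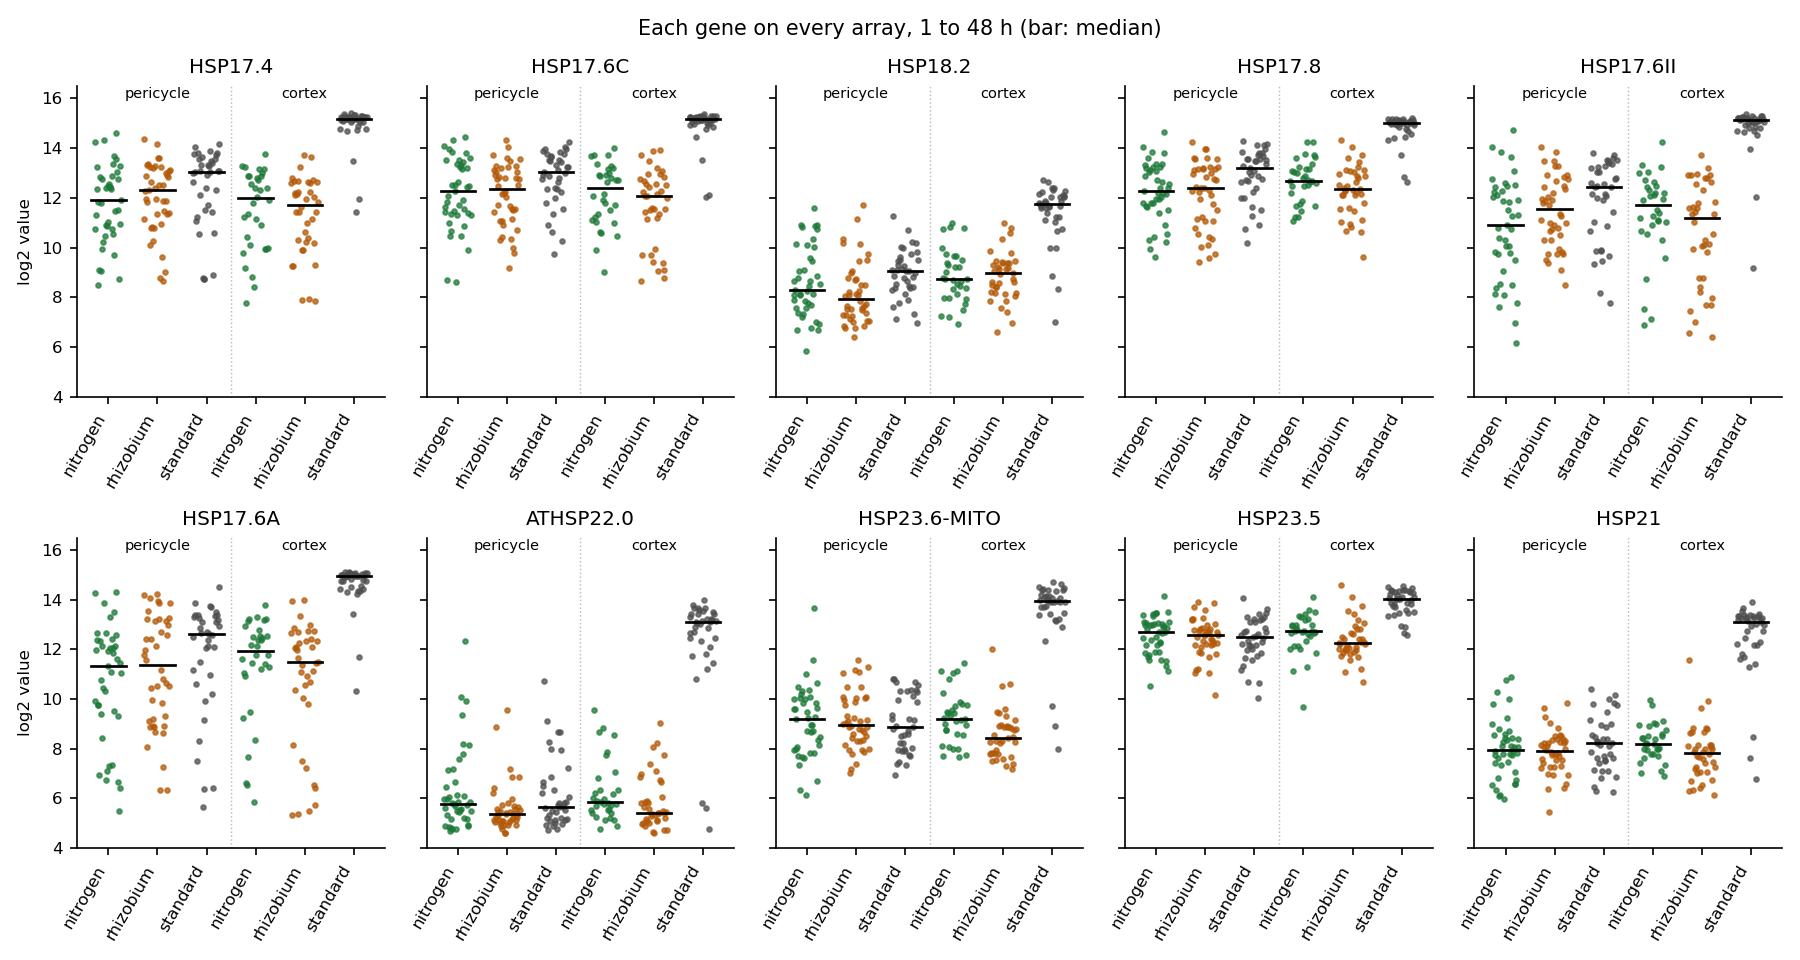
Log2 value of each of the 10 genes on every array from 1 to 48 h (points) with the median of each group (bar), in pericycle and cortex. On cortex standard arrays 9 genes form a band above nearly all treated arrays, while HSP23.5 overlaps, with medians of 12.72 with nitrogen, 12.24 with rhizobium and 14.02 on standard arrays.

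Pericycle arrays had levels of these genes close to those of treated cortex arrays, whatever the pericycle treatment. For all 10 genes cortex standard had the highest mean of the 8 groups and cortex 0 h the second highest. The other 6 group means of a gene lay within 0.41 (HSP21) to 1.35 (HSP17.6II) of each other. That spread was below the smallest SD between arrays of those groups for HSP17.4, HSP18.2, HSP17.6II, HSP17.6A, ATHSP22.0 and HSP21, and close to or above it for HSP17.6C, HSP17.8, HSP23.6-MITO and HSP23.5. An SD between single arrays is wider than the error of a group mean, so a spread below it does not show that the group means are equal. Pericycle minus cortex, over the standard hours and 0 h, had a median of -2.66 over the members and ran from -5.87 for ATHSP22.0 to -1.42 for HSP23.5. With nitrogen in both cell types the median was -0.25, from -0.73 to 0.14, and with rhizobium it was 0.21, from -0.67 to 0.83. Without the 3 cortex arrays the first median was -2.92. These contrasts share arrays with those above and were among the values used to choose the genes.

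Within the pericycle, differences between treatments were small. They were tested, but the same pericycle arrays entered the pericycle minus cortex differences known when the genes were chosen. By limma's moderated test over all loci, 2 of the 10 members were lower with nitrogen than on standard arrays, where 19.6% of all loci passed in either direction and 11.1% were lower. With rhizobium 2 members were lower, where 21.9% of all loci passed and 8.84% were lower. The member medians were -0.47 and -0.53, beside 0.04 and 0.03 over all loci. Within replicate numbers 1, 2 and 3 the member medians were 0.01, -0.55 and -0.81 with nitrogen and 0.12, -0.63 and -0.88 with rhizobium, so number 1 did not share the direction. Number 3 had 10 such hours with nitrogen and 8 with rhizobium, against 13 for numbers 1 and 2. Both comparisons use the same standard arrays, and 5 members with nitrogen and 4 with rhizobium had an unadjusted p below 0.05. Beside them, 4 of 7 root hair and epidermis markers were above standard with each treatment, with list means of 6.34 to 10.82 with nitrogen, 6.61 to 10.33 with rhizobium and 6.20 to 9.32 on standard arrays. With each treatment 2 of 4 cortex markers were also higher (medians 0.29 and 0.28), with list means of 7.15 to 10.65 with nitrogen, 7.15 to 10.58 with rhizobium and 7.34 to 10.08 on standard arrays. The part of either list in the members' differences was not tested.

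HSP17.6II had a lowest, median and highest value of 6.15, 10.89 and 14.73 with nitrogen, against 7.77, 12.43 and 13.80 on pericycle standard arrays. The ranges overlapped over most of their length, and the mean difference was -1.09 ± 0.365 (SE, limma adjusted p = 0.023). Within replicate numbers 1, 2 and 3 it averaged -0.65, -0.86 and -2.16. HSP17.8 had 9.64, 12.27 and 14.64 with nitrogen and 9.44, 12.39 and 14.24 with rhizobium, against 10.17, 13.18 and 14.28 on standard arrays. It fell by 0.619 ± 0.236 with nitrogen (SE, limma adjusted p = 0.049). With rhizobium HSP17.8 fell by 0.791 ± 0.237 (SE, limma adjusted p = 0.0092). Within numbers 1, 2 and 3 HSP17.8 averaged -0.08, -0.63 and -1.17 with nitrogen and 0.11, -0.70 and -2.30 with rhizobium, so the direction did not hold in number 1 for rhizobium. HSP18.2 had 6.38, 7.94 and 11.70 with rhizobium, against 6.95, 9.04 and 11.26 on standard arrays. It fell by 0.777 ± 0.276 (SE, limma adjusted p = 0.03), and within the 3 numbers it averaged -0.73, -0.98 and -0.21. Leaving out any 1 replicate number ended the nitrogen calls of HSP17.6II (-1.25, -1.25 and -0.77 without numbers 1, 2 and 3) and HSP17.8 (-0.78, -0.69 and -0.41) and the rhizobium call of HSP18.2 (-0.75, -0.77 and -0.80). The rhizobium call of HSP17.8 ended without number 3 (-0.48). The nitrogen call of HSP17.8 also ended with centred (-0.56) or quantile-normalised arrays (-0.61), with the replicate block (-0.55), in a fit of pericycle arrays alone (-0.62) and with all arrays kept (-0.60). The call of HSP18.2 also ended with centred (-0.65) or quantile-normalised arrays (-0.71) and in a fit of pericycle arrays alone (-0.78).

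The remaining differences did not pass in the pericycle, and their intervals bound them. For HSP17.4 the 95% interval was -1.28 to -0.01 with nitrogen and -1.06 to 0.21 with rhizobium, and for HSP17.6C it was -1.19 to -0.07 and -1.21 to -0.09. The chloroplast member HSP21 had intervals of -0.71 to 0.36 and -0.91 to 0.17. For HSP23.5 the interval was -0.10 to 0.50 with nitrogen and -0.26 to 0.34 with rhizobium. For HSP23.6-MITO it was -0.47 to 0.59 with nitrogen and -0.49 to 0.58 with rhizobium. The intervals of ATHSP22.0 were -0.61 to 0.76 with nitrogen and -1.37 to 0.00 with rhizobium. Its median on pericycle standard arrays was only 5.67, and the lowest value of the deposited table is 3.69. A fall as large as its cortex differences of -5.90 and -6.35 could not appear from that level, so the 2 cell types are not compared for it. HSP17.6A, the most variable member, had intervals of -2.03 to -0.15 and -1.58 to 0.31, with adjusted p = 0.092 and 0.35 by limma.

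**Figure D3:**
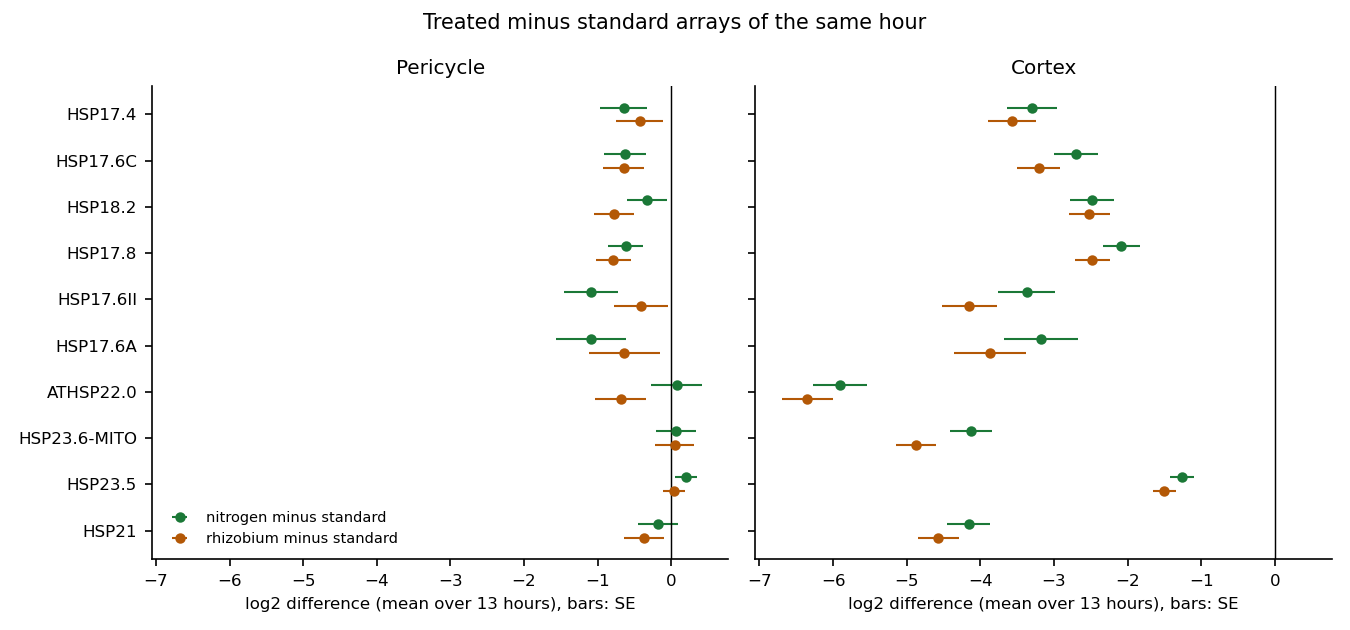
Treated minus standard log2 difference of each gene, averaged over 13 same-hour differences (points) with its SE (bars), in pericycle (left) and cortex (right). Pericycle differences lie between -1.09 and 0.20, and cortex differences between -6.35 and -1.26.

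Between nitrogen and rhizobium in the cortex the members differed by less than 1 log2 unit on average, with intervals that reach 1.69 for HSP17.6A and 0.61 for HSP18.2. With nitrogen set against rhizobium, 0 of 10 members passed by limma, where 14.8% of all loci did, and 2 had an unadjusted p below 0.05. All 10 differences were above 0, with a median of 0.43, beside 0.00 over all loci. Within replicate number 1 HSP18.2 was below 0 (-0.11), within number 2 no member was, and within number 3, with 6 hours, HSP17.4 (-1.33), HSP17.6A (-1.30), HSP17.6C (-0.32) and HSP18.2 (-0.26) were. HSP23.6-MITO came closest, at 0.739 ± 0.284 (SE, adjusted p = 0.063), and it passed in a fit of cortex arrays alone and without the 3 cortex standard arrays (0.74 in both). This contrast holds no standard arrays, so leaving those 3 out changes the estimated spread and not the difference. They were picked by the mean of the members themselves, so nothing is read from that pass. HSP17.6II had 0.778 ± 0.386 (adjusted p = 0.17). In the pericycle 0 of 10 members passed between nitrogen and rhizobium, where 14.2% of all loci did, and 1 had an unadjusted p below 0.05. That gene was ATHSP22.0, at 0.762 ± 0.339 (SE, limma adjusted p = 0.12).

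HSP17.6II leaned in opposite directions in the 2 cell types, at -0.674 in the pericycle and 0.778 in the cortex. The difference between these differences was -1.45 ± 0.53 (SE, limma adjusted p = 0.085). In that comparison, which was added after the data had been seen, 0 of 10 members passed, 1 had an unadjusted p below 0.05, and 3.51% of all loci passed.

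Variation among hours was tested in each group with a moderated F test, and HSP23.5 varied with the hour in 3 of the 6 groups. HSP23.5 had the smallest spread within groups, an SD of 0.66, beside a median of 0.83 over all loci and up to 2.09 for HSP17.6A, so equal shifts are easier to detect for it. With rhizobium in the cortex HSP23.5 had 13.75, 14.11 and 14.57 at 2 h and 12.26, 11.98 and 11.07 at 1 h. Those are its highest and lowest hours, picked after the means were seen, so their lack of overlap adds nothing to the test. HSP23.5 was the 1 member that passed (adjusted p = 0.037 by limma), where 1.33% of all loci did. On pericycle standard arrays it had 13.28, 13.21 and 14.06 at 2 h, its highest hour, and 11.15, 10.04 and 11.99 at 1 h. Its lowest hour mean there was 10.98 at 20 h, beside 11.06 at 1 h. These hours too were picked after the means were seen. In cortex with nitrogen its mean was 12.06 at 1 h and 11.90 at 2 h, while every other treatment group was higher at 2 h. HSP23.5 was the 1 member that passed on pericycle standard arrays (adjusted p = 0.024 by limma), where 2.28% of loci did. With nitrogen in the pericycle its hour means ran from 11.44 at 36 h to 13.62 at 24 h (adjusted p = 0.032). The cortex rhizobium and the pericycle standard calls of HSP23.5 ended when arrays were centred on their medians, and the pericycle standard call also ended in a fit of pericycle arrays alone. Both also ended without replicate number 2 and without number 3. The pericycle nitrogen call of HSP23.5 ended in a fit of pericycle arrays alone (adjusted p = 0.12 by limma) and without any 1 replicate number (adjusted p = 0.052, 0.28 and 0.18 without numbers 1, 2 and 3).

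The other 2 genes with a call among hours were ATHSP22.0 and HSP17.6II. In the pericycle with nitrogen, HSP17.6II had 10.05, 7.61 and 6.98 at 36 h and 14.73, 11.86 and 12.75 at 24 h. Those are its lowest and highest hours by mean, picked after the means were seen. HSP17.6II passed with HSP23.5 (adjusted p = 0.014 by limma), 2 of 10 members where 18.1% of all loci did. Without numbers 1, 2 and 3 the adjusted p of HSP17.6II was 0.064, 0.11 and 0.14 by limma, so this call also ended in each case. On cortex standard arrays ATHSP22.0 passed (adjusted p = 0.047), 1 of 10 where 5.56% of loci did, with hour means of 13.69 at 24 h and 9.39 at 14 h at the extremes. That call ended without the 3 arrays that stand apart, 1 of which is at 14 h, and also with centred or quantile-normalised arrays, in a fit of cortex arrays alone, and without replicate number 2 or 3. Rhizobium arrays of the cortex had HSP17.6II at 10.32, 7.01 and 6.42 at 48 h and 12.63, 13.72 and 12.94 at 2 h, with an adjusted p of 0.064 by limma. In cortex with nitrogen and in pericycle with rhizobium, 0 of 10 members passed by limma, where 6.78% and 12.6% of loci did, and 0 had an unadjusted p below 0.05.

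The course of the cortex standard arrays was also described by windows of hours. The mean of the 10 genes on cortex standard arrays had a lowest, median and highest value of 10.09, 13.69 and 14.39 from 1 to 6 h, 9.85, 14.18 and 14.39 from 8 to 16 h, and 13.94, 14.24 and 14.54 from 20 to 48 h. The low ends of 10.09 and 9.85 are the arrays of 4 h and 14 h that stood apart, and no such array falls in the last window. Whether saturation near the top of the scale narrows the last window was not tested. With nitrogen the mean over arrays of these windows was 10.81, 10.44 and 10.07, and with rhizobium 10.86, 9.72 and 9.55. At 12 h the pericycle standard arrays had means of 9.59, 8.77 and 9.05, the lowest hour of that group. At that hour 9 of 10 members were higher with nitrogen and 9 with rhizobium, the reverse of the mean over hours. The hour was picked after the means were seen, and both counts rest on the same low standard arrays, so nothing is read from them.

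The first hours after the move to fresh plates were set against 0 h. In the cortex, 1 to 2 h minus 0 h had a median of 0.59 over the members, 0 of 10 passed by limma, 0 had an unadjusted p below 0.05, and 0.962% of all loci passed. Without the array of 2 h that stood apart the median was 0.90, and again 0 of 10 passed by limma, with 0 at an unadjusted p below 0.05. Intervals were wide, for example -1.37 to 2.83 for ATHSP22.0, with 3 arrays of 0 h, of which 1 was low. In the pericycle the median was 1.31, 0 of 10 passed by limma, 4 had an unadjusted p below 0.05, and 14.8% of all loci passed. HSP17.6A had the largest value, 2.48 ± 1.26 (SE, adjusted p = 0.17), and HSP23.5 the lowest, -0.93 ± 0.40 (adjusted p = 0.099). HSP23.5 passed when arrays were centred on their medians, at -1.23. Markers of other cell types moved with this comparison: 6 of 7 root hair and epidermis markers were lower at 1 to 2 h (median -2.39) and 3 of 8 endodermis markers were lower (median -2.68), with root hair list means of 6.20 to 9.32 over all pericycle standard arrays of 1 to 48 h, against 8.34 to 10.24 at 0 h. Their part in the result was not tested.

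The 10 genes moved together across arrays to different degrees. Pearson's r between pairs of genes over 235 arrays ran from 0.43 to 0.94, with a median of 0.68 over 45 pairs, and after the group means had been taken out it ran from 0.11 to 0.91, with a median of 0.40. These are descriptions of arrays that share labelling, scaling and the group differences above. HSP17.4 and HSP17.6C had the highest within-group r, 0.91, followed by the neighbouring genes HSP17.6II and HSP17.6A, 0.89. The cytosolic genes HSP17.4, HSP17.6C, HSP17.8, HSP17.6II and HSP17.6A had within-group r of 0.72 or more with each other. HSP18.2, which is also cytosolic class I, was the exception, with 0.11 to 0.14 against HSP17.8, HSP17.6A, HSP17.4 and HSP17.6C and 0.24 against HSP17.6II. The organelle genes ATHSP22.0, HSP23.6-MITO and HSP21 had 0.56 to 0.60 with each other. HSP23.5, the other organelle gene, had 0.28, 0.34 and 0.13 with them in that order. HSP23.6-MITO also had 0.54 to 0.57 with HSP17.4, HSP17.6C, HSP17.8 and HSP17.6II, and 0.45 with HSP17.6A and 0.38 with HSP18.2.

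**Figure D4:**
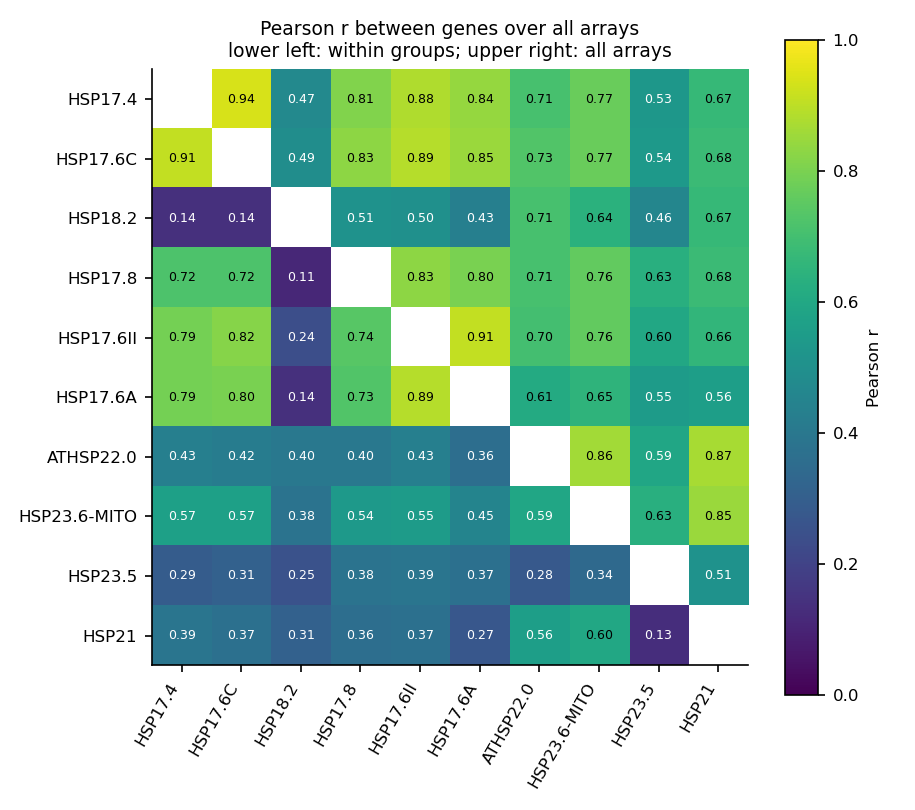
Pearson r between each pair of the 10 genes over 235 arrays, with all arrays in the upper right and deviations from group means in the lower left. Within groups HSP17.4, HSP17.6C, HSP17.8, HSP17.6II and HSP17.6A form a block with r of 0.72 or more, and HSP18.2 has r of 0.11 to 0.40.

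Single arrays showed the set high elsewhere too. On the pericycle nitrogen array of 24 h, replicate 1, HSP17.4 was 14.63, HSP17.6II 14.73, ATHSP22.0 12.33 and HSP23.6-MITO 13.67, each above every other treated pericycle array, while HSP21 was 7.97. On the replicate 2 array of pericycle 0 h, HSP17.4 was 14.50, HSP17.8 14.63 and HSP23.6-MITO 13.39, and the other 4 arrays of 0 h had HSP23.6-MITO between 8.34 and 9.70.

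Loci whose level followed the mean of the 10 genes most closely were mainly other chaperone genes. By Pearson's r over 235 arrays the first were AT1G59860 (0.89), a further alpha-crystallin family locus, Hsp70b (0.88) and HSP70T-2 (0.87), both of the HSP70 family, and AT4G21323 (0.85). BAG6, AT1G59865, AT2G29500 and AT1G52560 had 0.84, and MBF1C, a transcriptional coactivator of the heat response, and AT5G37670 had 0.83. With group means taken out, AT1G59860 (0.78), Hsp70b (0.72) and AT2G29500 (0.71) led, and HSP90.1 and Fes1A had 0.64. Of these 10 loci in the first ranking, 8 were in the chaperone and heat lists, which had been drawn up with earlier results known, and the r values carry no test.

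Other chaperone and heat response genes were set beside the members in the treated cortex, where 35.7% of all loci passed with nitrogen and 37.8% with rhizobium, and 14.8% and 16.0% were lower. Of 10 further alpha-crystallin family loci, 6 were lower and 1 higher with nitrogen (median -2.02), and 6 were lower and 0 higher with rhizobium (median -2.34). AT1G52560 had -5.89 and -6.21 and AT5G37670 had -5.00 and -5.35, while AT1G06460, with -0.32 and -0.18, did not pass. Of 11 HSP70 genes, which bind and refold proteins, 8 were lower with nitrogen (median -0.82) and 9 with rhizobium (median -1.04). HSP70T-2 had -4.73 and -4.81 and Hsp70b -4.12 and -4.19, whereas HSC70-1, an HSP70 present without stress, had 0.10 and 0.04 and did not pass. Of 9 HSP90 and HSP100 genes, 7 and 8 were lower, among them HSP101, the cytosolic disaggregase (-1.69 and -1.78).

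Among 21 heat shock factors, a family of transcription factors, 9 were lower and 3 higher with each treatment. Which of them act on the members was not tested. Of all loci 14.8% and 16.0% were lower, and 35.7% and 37.8% passed in either direction. HSFA2, which is itself heat-induced and sustains the response, had -4.50 and -3.98, and HSFA6B had 1.32 and 1.42. Of 11 other heat-induced genes 10 were lower and 1 higher with nitrogen and 9 were lower and 1 higher with rhizobium. The higher one was AT4G15802, listed as HSBP, at 1.05 and 1.02. The ER chaperone list holds genes that answer to unfolded proteins in the endoplasmic reticulum, among them the transcription factor gene BZIP60. This list did not share the direction of ATHSP22.0: 5 of 9 were higher and 1 lower with nitrogen (median 0.21), and 3 were higher and 1 lower with rhizobium (median 0.12). Of 9 touch, wounding and stress genes 4 were lower with each treatment and 1 with nitrogen and 2 with rhizobium were higher, the largest change being -0.90 with nitrogen for MPK3.

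In the pericycle the same lists had the following counts, beside 11.1% of all loci lower with nitrogen and 8.84% with rhizobium, and the difference from the cortex was not tested. With nitrogen 2 of 10 further alpha-crystallin loci, 3 of 11 HSP70 genes, 2 of 9 HSP90 and HSP100 genes, 6 of 21 heat shock factors and 4 of 11 other heat-induced genes were lower. With rhizobium the counts were 3, 1, 4, 1 and 5, of which those of the HSP70 genes and heat shock factors are close to or below the share of all loci. With nitrogen 1 HSP70 gene was higher, and with rhizobium 2 heat shock factors were. Of the 9 genes in the ER chaperone list 3 were lower and 1 higher with nitrogen and 4 were lower with rhizobium. Of 9 touch, wounding and stress genes 2 were lower and 1 higher with nitrogen and 3 were higher with rhizobium. HSP90.1, a heat-induced cytosolic HSP90, had -1.02 with nitrogen and -0.88 with rhizobium, and BAG6, a co-chaperone that binds HSP70, had -0.87 and -1.02. Hsp70b, at -0.68 and -0.74, did not pass.

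**Figure D5:**
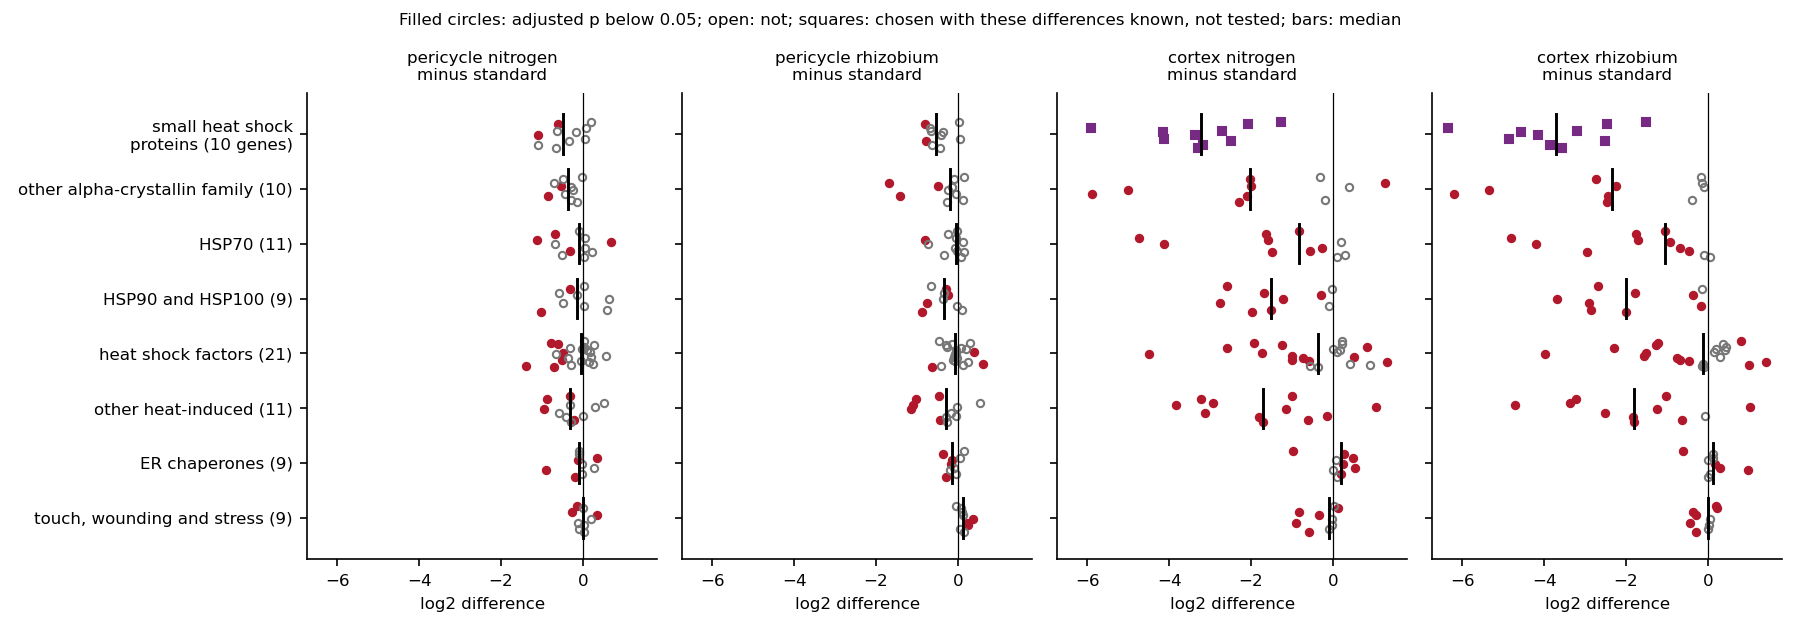
Log2 differences from standard arrays of the 10 small heat shock protein genes and 7 other lists (points; bars are medians), for nitrogen and rhizobium in pericycle and cortex. The medians of the further alpha-crystallin loci are -2.02 and -2.34 in the cortex, and those of the ER chaperones are 0.21 and 0.12.

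Markers of cell types were counted in the same way on treated cortex arrays. There 35.7% of all loci passed with nitrogen and 37.8% with rhizobium, in either direction, and 14.8% and 16.0% were lower. With nitrogen all 4 cortex markers (median 1.21), 5 of 8 pericycle and stele markers (median 0.62, 1 lower) and 2 of 3 root cap markers were higher. With rhizobium 3 of 4 cortex markers (1 lower), 3 of 8 pericycle and stele markers (1 lower) and 1 of 3 root cap markers were higher. The phloem list, at 4.99 to 7.15 with nitrogen, 4.90 to 6.30 with rhizobium and 4.89 to 6.76 on standard arrays, had no member that passed. With nitrogen 1 of 8 endodermis markers was higher and 1 lower, 1 of 4 xylem markers was higher and 1 lower, and 0 of 7 root hair and epidermis markers passed. With rhizobium these lists had 0 of 8, 1 lower of 4 and 1 higher of 7. The part of cell composition in the members' differences was not tested.

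Genes next to the members on the chromosome formed a set chosen after values had been seen, which carries no test as a set. In the RefSeq annotation of TAIR10.1, 18 loci on the array neighbour the 10 members. With nitrogen in the cortex 12 of the 18 were lower and 1 was higher (median -0.67), and with rhizobium 11 were lower and 2 higher (median -0.50), beside 14.8% and 16.0% of all loci lower. RABA2b (AT1G07410) and RLP1 (AT1G07390), on either side of HSP17.8, had -2.52 and -2.05 with nitrogen and -2.74 and -2.32 with rhizobium. RIN3, next to HSP23.5, had -2.05 and -1.66. QWRF7, next to HSP23.6-MITO, had 0.50 and 0.23 and did not pass. In the pericycle 4 of the 18 were lower with nitrogen and 2 with rhizobium, beside 11.1% and 8.84% of all loci lower. The rhizobium count is close to that share. The counts of higher neighbours were 1 and 2. Cross-hybridisation between neighbouring loci was not tested.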

How the data were processed

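RNA of sorted cortex and pericycle cells was measured on 236 single-colour NimbleGen arrays. Per the submitters' processing notes the deposited values are log2 intensities normalised by RMA, which makes arrays comparable only if most genes do not change. No version of RMA was stated there. The 31524 rows were averaged to 27143 loci, and 1 pair of arrays that correlated at 0.9992 was averaged, leaving 235 arrays in 80 groups of 2 to 5 by cell type, treatment and hour.

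Loci were fitted together with limma 3.58.1 in R 4.3.3, with 1 mean per group, moderated variances and Benjamini-Hochberg adjustment over all loci at a threshold of 0.05. A treatment contrast is the mean of 13 same-hour differences, and hours were compared within a group by an F test. The procedure was tested on simulated data. For the pericycle nitrogen comparison it found 23.9% of changes of 0.5 and 77.6% of changes of 1 on the log2 scale. Among hours it found 26.9% to 34.3% of changes of 1. For 1 to 2 h against 0 h it found 7.5% in cortex and 17.9% in pericycle, so members that did not pass there may still have changed. These rates are not specific to the members, whose median within-group SD was 1.22, beside 0.83 over all loci.

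The number of arrays limits precision. Scaling, replicate numbers, the fitted arrays, the variance model, a filter on low values and the choice of rows were varied. All 10 members were named, with the 10 loci that correlate best with their mean and genes from 14 other lists. The members and lists were chosen with earlier results of these data known. Gene names came from RefSeq for TAIR10.1, which gives a symbol for 7 members. Sequences were not used here.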

Additional observations from a re-analysis of the deposited data

Results flagged for a closer look

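In groups of 4 or 5 arrays, 15 of 110 checks found 1 array far from the others by Dixon's test, where chance flags about 1 in 20 groups, and genes on 1 array are not independent checks. In pericycle at 0 h the replicate 2 array was far above the other 4 for HSP18.2 (9.68), ATHSP22.0 (8.41), HSP23.6-MITO (13.39) and HSP21 (10.51). In pericycle with rhizobium at 12 h the replicate 2 array was far below for the cytosolic genes HSP17.4 (8.76), HSP17.6C (9.17), HSP17.8 (10.09), HSP17.6II (9.76) and HSP17.6A (6.35). In pericycle with rhizobium at 10 h the replicate 1 array was far above for HSP17.6A (13.93), ATHSP22.0 (9.57) and the mean of the 10 genes (11.73). In pericycle with nitrogen at 6 h, 3 different arrays were apart, with HSP17.6A low at 6.73, ATHSP22.0 high at 9.90 and HSP23.5 low at 11.70.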

How the results depend on the processing

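Counts of members called are of 10. With nitrogen against standard in pericycle 2 became 1 when arrays were centred or quantile-normalised, with the replicate block, in a fit of pericycle alone and with all arrays kept, and 0 without any replicate number. With rhizobium against standard in pericycle 2 became 1 when centred, quantile-normalised or fitted alone, and 0 to 1 without a replicate number. Cortex nitrogen against rhizobium went to 1 in cortex alone and without the arrays that stand apart. Pericycle 1 to 2 h against 0 h went to 1 when centred. Across hours, cortex standard had 0 when centred, quantile-normalised, fitted alone or without the arrays that stand apart, and 0 to 1 without a replicate number. Cortex rhizobium had 0 when centred, 3 with the replicate block, 2 when fitted alone or without the arrays that stand apart, and 0 to 2 without a replicate number. Pericycle standard had 0 when centred or fitted alone, and 0 to 1 without a replicate number. Pericycle nitrogen had 1 when fitted alone and 0 to 1 without a replicate number. No direction of a called value reversed in these runs, and the cause of these losses was not tested, beyond the fewer arrays left without a replicate number. The setting without the arrays that stand apart was chosen after seeing the data. Arrays with the same replicate number did not deviate together (mean r 0.001 in cortex and 0.006 in pericycle, over all loci), so the numbers were not taken as pairs. The mean of the 10 genes nevertheless differed between numbers 1, 2 and 3 on some treated arrays, at 10.87, 10.46 and 9.37 in cortex nitrogen, 10.66, 10.31 and 9.67 in pericycle nitrogen and 10.70, 10.22 and 9.66 in pericycle rhizobium, against 10.72, 10.70 and 10.52 in pericycle standard, and this was not tested. For pericycle minus cortex the replicate block could not be fitted because numbers are nested in cell type.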
